A study of Mus musculus with 6 samples.

Results

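The genes described here are 8 chemokines (Cxcl1, Cxcl2, Cxcl9, Cxcl10, Cxcl12, Ccl2, Ccl6 and Ccl9) and 2 leukocyte adhesion molecules (Icam1 and Vcam1). They were taken by symbol from the table of read counts, in which all 10 were found among 23284 genes. Chemokines are small secreted proteins that bind G protein-coupled receptors on leukocytes and direct them towards the cells that release them. Icam1 and Vcam1 are cell surface proteins to which leukocyte integrins bind, so that cells carried in the blood can stop and leave the vessel. In liver the sources of these proteins include hepatocytes, Kupffer cells (the resident macrophages), sinusoidal endothelial cells and stellate cells, and several of the genes are known targets of NF-kB or of interferons.

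Liver RNA came from homozygous Trim24 knockout mice (Trim24 -/-, 3 libraries, KO1 to KO3) and from wild type mice (3 libraries, WT1 to WT3). All mice were 8 weeks old and of the C57BL6/J strain. Trim24 encodes a cofactor of nuclear receptors, and the series is about its loss in fatty liver and liver cancer. The knockout allele, the sex of the mice and whether each library is a separate mouse are not given in the sources used here, so each p-value refers only to the variation among these 6 libraries, which may be technical. The livers are bulk tissue, in which fewer cells of a type and less RNA per cell, or more of either, cannot be told apart.

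Reads in genes numbered 1607276 to 2872421 in the knockout libraries and 1495583 to 1732309 in the wild type libraries, and KO3 was the deepest. Of all counted reads, 93.3% to 95.8% fell in no gene, and the cause was not tested. Low counts and comparisons between genes rest on the small remaining part. Levels are given in CPM, reads of a gene scaled to 1000000 reads in the tested genes with TMM factors, a correction for differences in composition between libraries. A count of 0 allows up to 3 counts, which is 1.04 to 1.86 CPM in the knockout and 1.78 to 2.10 CPM in the wild type libraries. Trim24 had 3, 2 and 2 reads in KO1 to KO3, against 31, 45 and 44 reads in WT1 to WT3, so the labels and the gene's reads match. The 9 hepatocyte markers found summed to 91012 to 120870 CPM in knockout and 128660 to 143260 CPM in wild type livers. KO1 and KO3 also held transcripts of pancreatic acinar cells, whose 20 markers summed to 1074 and 692 CPM, against 14.1 CPM in KO2 and 12.5 to 39.8 CPM in wild type.

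Of the 10 genes, Cxcl1, Cxcl9, Ccl6, Icam1 and Vcam1 rose in knockout liver, by 2.22-fold (Vcam1) to 24.4-fold (Cxcl1). Cxcl12 and Ccl9 did not pass the threshold, an adjusted p under 0.05 in edgeR's quasi-likelihood test, and no gene of the 10 fell. Cxcl2, Cxcl10 and Ccl2 had too few reads for the test. Over all 9180 genes tested, 3.08% were called higher and 2.65% lower, or 4.06% and 1.87% when libraries were scaled by their total reads alone. Of the 7 tested genes, Cxcl1, Cxcl9 and Icam1 reached the filter's level of 5.99 CPM in all 3 libraries of the knockout group only, so their passing the filter itself depended on the difference. The 5 called genes also had no overlap between the groups in CPM, as did 12.4% of all tested genes with the knockout higher. Without that filter all 10 genes could be tested and the same 5 were called, against 3.39% of 16989 genes called higher. In that fit the edgeR adjusted p of Cxcl1 was 2.1e-64, against 0.00089 with the filter. P-values of these fits are thus not comparable. DESeq2 called the same 5, against 2.83% called higher and 2.86% lower, and limma-voom called 4 of them, all but Ccl6, against 2.55% and 2.60%. No gene of the 10 was called lower, or had a lower level at an unadjusted p under 0.05, in edgeR, and DESeq2 and limma-voom also called 0 lower.

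**Figure D1:**
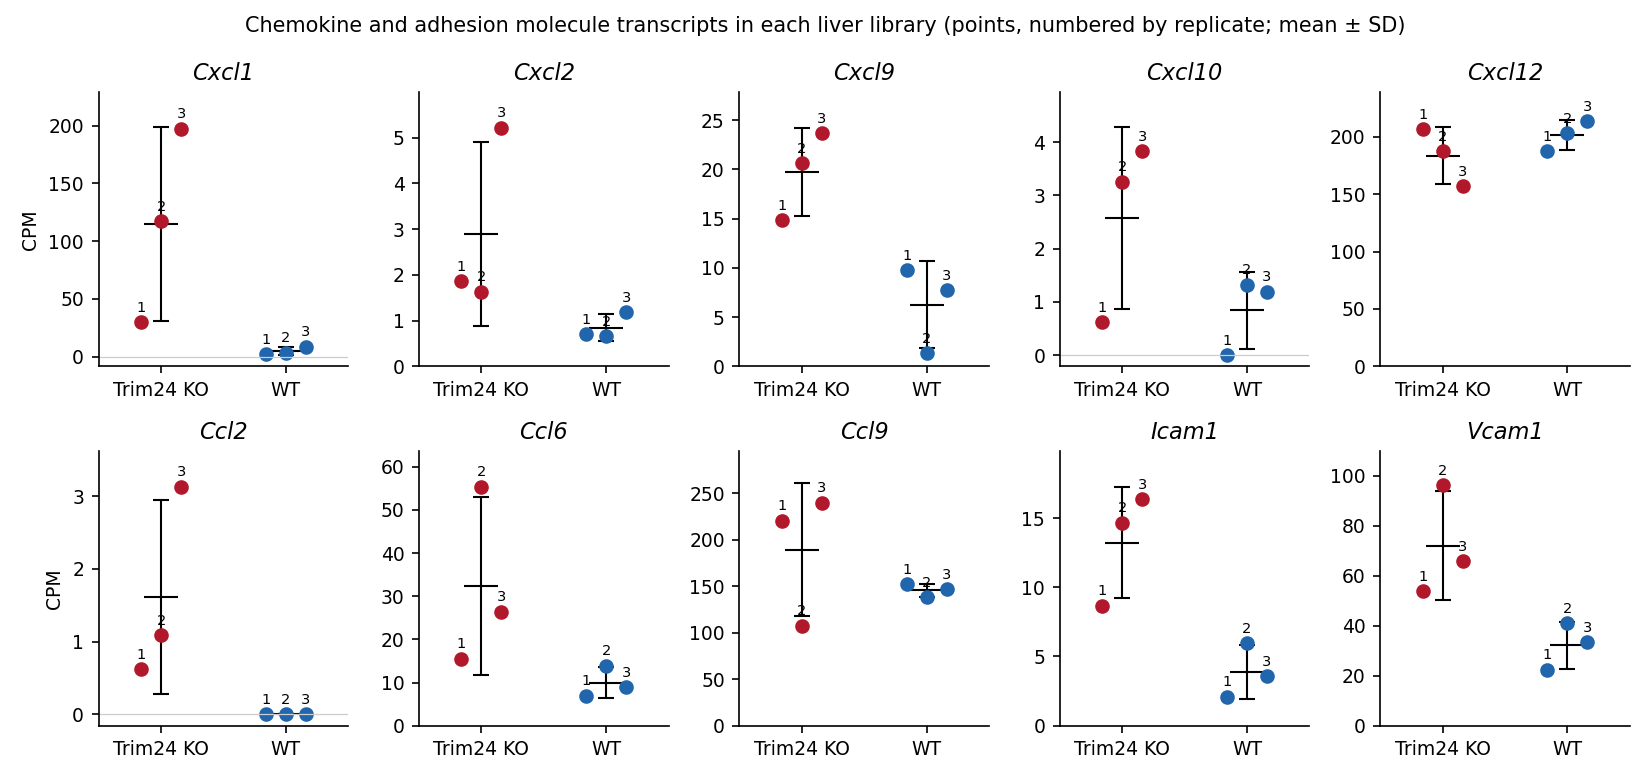
CPM of each gene in the 3 Trim24 knockout libraries (left, red) and the 3 wild type libraries (right, blue), numbered by replicate, with the mean and SD as bars and a separate linear axis for each gene. All knockout points lie above all wild type points for Cxcl1, Cxcl2, Cxcl9, Ccl2, Ccl6, Icam1 and Vcam1, while Cxcl10, Cxcl12 and Ccl9 overlap.

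Cxcl1 and Cxcl2 encode the neutrophil attractants KC and MIP-2, which act on the receptor Cxcr2. Cxcl1 stood at 29.7, 117 and 197 CPM in KO1 to KO3, against 2.10, 3.31 and 8.31 CPM in WT1 to WT3. These were 48, 216 and 567 reads in the knockout and 3, 5 and 14 reads in the wild type libraries, so the groups were far apart although the knockout libraries spanned a 6.64-fold range. The means were 115 ± 84 CPM in knockout and 4.57 ± 3.30 CPM in wild type (SD, n = 3 each). The log2 fold change was 4.61 (SE 0.64, edgeR adjusted p = 0.00089). Cxcl1 was called with every library left out in turn, with an adjusted p up to 0.012. Its log2 fold change was 3.95 without KO3 and 5.39 without WT3, shifts of more than 1.5 times on the linear scale. Cxcl2, which lies 10.8 kb from Cxcl1 in the GENCODE annotation, was close to the limit of detection, with 3, 3 and 15 reads in KO1 to KO3 and 1, 1 and 2 reads in WT1 to WT3. That is 21 reads over the knockout group against 4 over the wild type group, a depth-corrected ratio of 3.84 with an exact 95% counting interval of 1.29 to 15.4, which covers counting error only. The groups did not overlap in CPM (two-sided exact permutation p = 0.1, the smallest that 3 against 3 libraries allow), and 15 of the 21 knockout reads came from KO3.

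Promoters are shown for the neighbouring pairs Cxcl1 with Cxcl2 and Cxcl9 with Cxcl10, and for Icam1, since these are known targets of NF-kB or of interferons and each had a higher mean in knockout liver. Sequences are from RefSeq on GRCm38.p6, 250 bases before to 50 bases after the annotated start, 5′ to 3′ on the gene's strand, while the submitters' processing notes name mm9. Capitals mark matches, on both strands, to the kappaB motif (GGGA, any 4 bases, then CC), the interferon-stimulated response element (GAAA, any 2 bases, then GAAA), the interferon gamma-activated sequence TTCNNNGAA and the AP-1 motif TGANTCA, and overlapping matches run together.
Cxcl1 promoter, chr5:90890995-90891294, plus strand: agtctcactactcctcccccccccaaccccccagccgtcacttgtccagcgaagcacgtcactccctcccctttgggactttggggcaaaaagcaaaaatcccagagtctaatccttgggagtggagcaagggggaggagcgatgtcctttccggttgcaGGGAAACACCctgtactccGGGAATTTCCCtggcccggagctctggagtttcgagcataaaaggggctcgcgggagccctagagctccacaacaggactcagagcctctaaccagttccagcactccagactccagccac
Cxcl2 promoter, chr5:90903649-90903948, plus strand: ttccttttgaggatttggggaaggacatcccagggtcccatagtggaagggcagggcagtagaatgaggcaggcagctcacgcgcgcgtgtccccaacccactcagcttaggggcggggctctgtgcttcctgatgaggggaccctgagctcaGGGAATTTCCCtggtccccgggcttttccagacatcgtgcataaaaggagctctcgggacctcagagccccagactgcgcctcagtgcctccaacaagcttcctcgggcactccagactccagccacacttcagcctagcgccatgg
Cxcl9 promoter, chr5:92328030-92328329, minus strand: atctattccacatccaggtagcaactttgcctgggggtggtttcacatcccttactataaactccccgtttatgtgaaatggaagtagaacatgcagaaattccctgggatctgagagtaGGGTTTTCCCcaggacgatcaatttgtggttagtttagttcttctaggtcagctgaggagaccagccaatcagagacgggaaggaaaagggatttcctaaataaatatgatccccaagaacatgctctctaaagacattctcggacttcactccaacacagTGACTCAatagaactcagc
Cxcl10 promoter, chr5:92348840-92349139, minus strand: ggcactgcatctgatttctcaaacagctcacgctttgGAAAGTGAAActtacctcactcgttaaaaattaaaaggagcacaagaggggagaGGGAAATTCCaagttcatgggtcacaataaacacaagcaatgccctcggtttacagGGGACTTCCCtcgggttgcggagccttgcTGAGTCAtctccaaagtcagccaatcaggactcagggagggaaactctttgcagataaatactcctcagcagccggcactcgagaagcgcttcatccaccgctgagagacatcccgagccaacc
Icam1 promoter, chr9:21015690-21015989, plus strand: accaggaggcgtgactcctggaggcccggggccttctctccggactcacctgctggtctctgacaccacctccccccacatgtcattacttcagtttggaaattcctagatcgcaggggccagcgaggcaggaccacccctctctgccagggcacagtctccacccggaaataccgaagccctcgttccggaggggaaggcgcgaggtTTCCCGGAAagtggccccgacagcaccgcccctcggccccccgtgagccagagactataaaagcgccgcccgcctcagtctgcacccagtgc
Cxcl1 and Cxcl2 both hold the kappaB match GGGAATTTCC, beginning 71 bases before the start in Cxcl1 and 97 bases before it in Cxcl2, and Cxcl1 holds a further match 90 bases before the start. Cxcl9 has 1 kappaB match 130 bases before the start and an AP-1 match 31 bases after it. Cxcl10 carries 2 kappaB matches, 159 and 103 bases before the start, an AP-1 match 74 bases before it and the interferon response element GAAAGTGAAA 213 bases before it. Icam1 has the gamma-activated sequence TTCCCGGAA 42 bases before the start and no match to this kappaB spelling in the window. A kappaB match was thus present in 4 of the 8 genes with a promoter in the table, and in 20.7% of all 32851 promoters of the same length. The interferon element was in 3.44%, the gamma-activated sequence in 8.30% and the AP-1 motif in 7.81% of them. Cxcl12 and Ccl6 had no match, and Ccl9 had an AP-1 match 53 bases before its start. A match is a description of the letters and no measure of binding.

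Cxcl9 and Cxcl10 are interferon-induced attractants of activated T cells and NK cells through the receptor Cxcr3. Cxcl9 was at 14.9, 20.6 and 23.7 CPM in KO1 to KO3, against 9.78, 1.32 and 7.72 CPM in WT1 to WT3. All knockout libraries exceeded the highest wild type library, and WT2, with 2 reads, was far below the other wild type libraries. The means were 19.7 ± 4.5 CPM in knockout and 6.27 ± 4.41 CPM in wild type (log2 fold change 1.67, SE 0.42, edgeR adjusted p = 0.032). Without WT2, the low library, the log2 fold change was 1.19 (adjusted p = 0.077), and the call was also lost without KO2 (0.086), KO3 (0.10) or WT3 (0.089). Its neighbour Cxcl10, 18.6 kb away, had 1, 6 and 11 reads in KO1 to KO3 against 0, 2 and 2 reads in WT1 to WT3. The groups overlapped because KO1 was low, and the ratio over the groups was 3.29 with a counting interval of 1.08 to 13.4 (two-sided exact permutation p = 0.3 on CPM). Exons of Cxcl10 share 133 bases with Art3 on the opposite strand, whose reads cannot be told apart where strand was not counted.

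Cxcl12, also called SDF-1, is the constitutive ligand of Cxcr4 and holds haematopoietic cells in their niches. Its knockout libraries spanned a 1.31-fold range, the narrowest of the 10 genes, at 206, 187 and 157 CPM in KO1 to KO3 and 187, 203 and 213 CPM in WT1 to WT3. The ranges overlapped, and the means of 183 ± 25 CPM in knockout and 201 ± 13 CPM in wild type gave a log2 fold change of -0.14 (SE 0.16, edgeR adjusted p = 0.68). Every alternative fit also gave a negative value, from -0.23 to -0.03, none of them called. Cxcl12 shares chromosome 6 with Trim24 but lies 79.2 Mb from it in the GENCODE annotation.

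The CC chemokines differed among themselves. Ccl2 (MCP-1), which draws monocytes out of the blood through Ccr2, had 1, 2 and 9 reads in KO1 to KO3 and 0 reads in each wild type library, where a count of 0 allows the limit given above. KO1 and KO2 lay within that limit, so no fold is given. In the fit without a filter its unadjusted p was 0.0055 and its edgeR adjusted p = 0.075. Ccl6 and Ccl9 are related ligands of the receptor Ccr1 that are made by myeloid cells, and their genes lie 9.2 kb apart. Ccl6 was at 15.5, 55.4 and 26.4 CPM in KO1 to KO3, against 6.99, 13.9 and 8.91 CPM in WT1 to WT3. The groups did not overlap, but KO1 was only slightly above WT2, and KO2 was the highest. The means were 32.4 ± 20.6 CPM in knockout and 9.93 ± 3.56 CPM in wild type (log2 fold change 1.70, SE 0.42, edgeR adjusted p = 0.033). The call ended without KO2 (log2 fold change 1.12, adjusted p = 0.11), without WT1 (0.13), WT2 (0.055) or WT3 (0.13), and with limma-voom (0.083). Ccl9 was abundant in every library, at 220, 107 and 240 CPM in KO1 to KO3 and 152, 138 and 147 CPM in WT1 to WT3. KO1 and KO3 lay above all wild type libraries and KO2 below all of them. The means of 189 ± 71 CPM in knockout and 146 ± 7 CPM in wild type were not called different (log2 fold change 0.38, SE 0.24, edgeR adjusted p = 0.40), and without KO2 Ccl9 was called higher (0.67, adjusted p = 0.042). KO2 thus held the highest Ccl6 and the lowest Ccl9, with 51.5 Ccl6 reads for every 100 Ccl9 reads, against 7.02 and 11.03 in KO1 and KO3 and 4.59 to 10.05 in wild type.

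Icam1 binds the beta 2 integrins LFA-1 and Mac-1, and Vcam1 binds the integrin VLA-4. Icam1 was low, with 14, 27 and 47 reads in KO1 to KO3 and 3, 9 and 6 reads in WT1 to WT3. In CPM this was 8.67, 14.7 and 16.4 in the knockout libraries, all above the 2.10, 5.95 and 3.56 of the wild type libraries. The means of 13.2 ± 4.0 CPM in knockout and 3.87 ± 1.95 CPM in wild type gave a log2 fold change of 1.78 (SE 0.41, edgeR adjusted p = 0.021). The call was lost without KO2 (0.067), KO3 (0.084), WT1 (0.093) or WT3 (0.099). Vcam1 had more reads, at 53.9, 96.1 and 65.8 CPM in KO1 to KO3, against 22.4, 41.0 and 33.3 CPM in WT1 to WT3. No wild type library reached the lowest knockout library, KO1. The means were 71.9 ± 21.8 CPM in knockout and 32.2 ± 9.4 CPM in wild type (log2 fold change 1.15, SE 0.25, edgeR adjusted p = 0.015), a call that ended without KO2 (0.066), WT1 (0.076) or WT3 (0.072). Annotated antisense transcripts share 511 bases with exons of Icam1 and 61 bases with those of Vcam1.

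**Figure D2:**
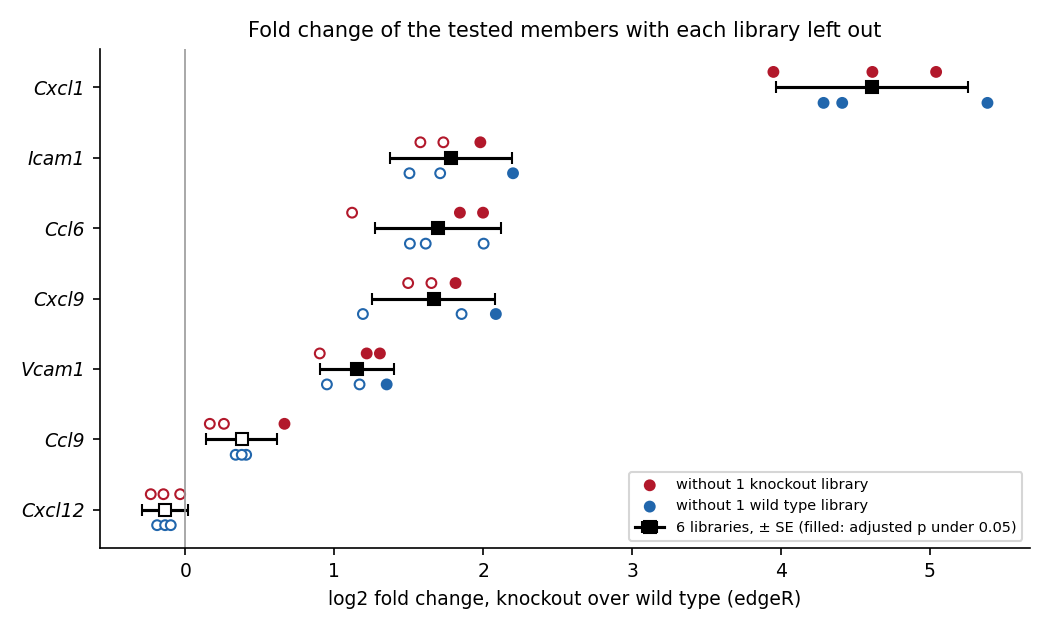
Log2 fold change (knockout over wild type, edgeR) of the 7 tested genes with all 6 libraries (square, with SE) and with 1 knockout (red, above) or 1 wild type library (blue, below) left out. Filled symbols have an adjusted p under 0.05. Cxcl1 keeps its call in all 6 fits, and Ccl9 is called in the fit without KO2 alone.

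Leaving out 1 library changed how many of the genes were called. Higher calls numbered 5 without KO1, 2 without KO2 and 3 without KO3, where 4.28%, 2.03% and 2.15% of all tested genes were called higher. They numbered 2 without WT1, 3 without WT2 and 1 without WT3, where 1.83%, 1.78% and 1.34% were. With the replicate number as a block 5 were called, against 3.21%. KO1 was the lowest knockout library for each of the 5. For Cxcl1, Cxcl9 and Icam1 the highest library was KO3, and for Ccl6 and Vcam1 it was KO2. On the log2(CPM + 1) scale, the 7 tested genes differed from their wild type means by a median of 0.77, 1.76 and 1.38 in KO1 to KO3 and -0.40, 0.02 and 0.09 in WT1 to WT3. Their median log2 fold change in the edgeR fit was 1.67, against 0.01 over all tested genes, and it rests on genes of which 3 passed the filter through their knockout level. KO2 was the knockout library with acinar markers near the wild type level. With KO2 as the only knockout library, log2 fold changes were 4.61 (Cxcl1), 2.46 (Ccl6), 1.57 (Vcam1), 1.70 (Cxcl9) and 1.89 (Icam1). KO2 is also part of the full comparison, and a part of pancreatic tissue in the rises was not tested. Calls in that fit take their spread from wild type libraries alone, which is taken to hold for KO2.

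Levels of different genes were compared per length, as RPKM, the CPM divided by the kilobases of annotated exon. In knockout liver Ccl9 (62.1 ± 23.5) and Cxcl1 (61.2 ± 44.7) led, followed by Cxcl12 (22.4 ± 3.0), Ccl6 (18.1 ± 11.5), Vcam1 (8.11 ± 2.45), Cxcl9 (6.54 ± 1.48) and Icam1 (3.03 ± 0.93 RPKM, SD, n = 3). In wild type liver the order was Ccl9 (47.9 ± 2.3), Cxcl12 (24.6 ± 1.6), Ccl6 (5.53 ± 1.98), Vcam1 (3.63 ± 1.06), Cxcl1 (2.44 ± 1.76), Cxcl9 (2.08 ± 1.46) and Icam1 (0.888 ± 0.446 RPKM). Cxcl2, Cxcl10 and Ccl2 came last in both, at 1.14 to 1.42 RPKM in knockout and 0 to 0.411 RPKM in wild type. In knockout the ranges of neighbours in this order overlapped down to Cxcl9, which lay above Icam1 in every library. In wild type Ccl9 lay above Cxcl12 and Cxcl12 above Ccl6 in every library, and the later neighbours overlapped. With the longest transcript as the length, Vcam1 moved ahead of Ccl6 in wild type, the order in knockout was as before, and the ranges of Cxcl9 and Icam1 in knockout overlapped.

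The 8 chemokines together reached 129, 162 and 233 RPKM in KO1 to KO3, against 81.5, 81.1 and 87.3 RPKM in WT1 to WT3. Cxcl1 made up 12.3%, 38.7% and 45.2% of this sum in KO1 to KO3 and 1.37%, 2.18% and 5.08% in WT1 to WT3. Ccl9 and Cxcl12 together held 75.8%, 36.0% and 42.1% in KO1 to KO3, against 89.5%, 86.6% and 85.0% in the wild type libraries. In KO2 a further 19.1% was Ccl6, the largest share of that gene in any library.

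**Figure D3:**
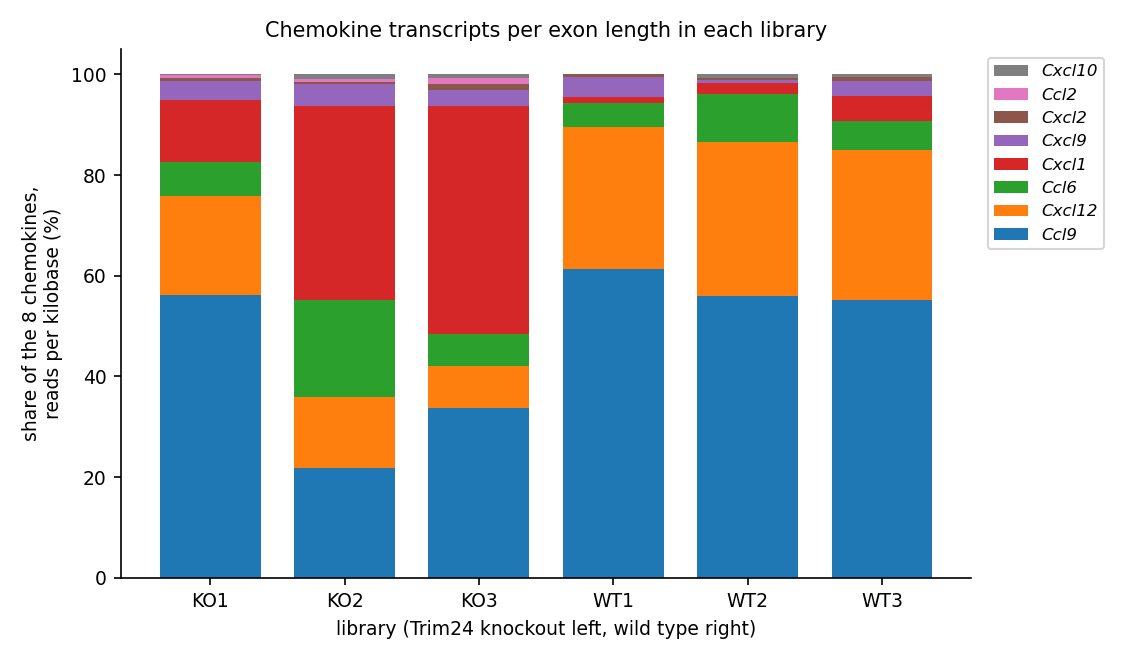
Share of each of the 8 chemokines in their summed reads per kilobase, in percent, in the 3 Trim24 knockout libraries (left) and the 3 wild type libraries (right). Cxcl1 (red) takes 12.3% to 45.2% in the knockout and 1.37% to 5.08% in the wild type libraries.

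The receptors were mostly low, and none of the 7 tested among 23 chemokine receptors passed in either direction (0 higher and 0 lower in edgeR, DESeq2 and limma-voom, with 0 higher and 2 lower at an unadjusted edgeR p under 0.05). Of all tested genes 3.08% were called higher and 2.65% lower in edgeR. At an unadjusted edgeR p under 0.05 the shares were 10.3% and 9.97%. By the mean CPM over all 6 libraries, not corrected for length, the highest 2 tested receptors were Ccrl1 and Ccbp2. Ccrl1, a scavenger of CC chemokines also called Ackr4, was at 46.6 ± 10.2 CPM in knockout and 41.2 ± 6.4 CPM in wild type. Ccbp2 (Ackr2), a scavenger of inflammatory CC chemokines, was at 9.07 ± 6.22 CPM in knockout and 22.03 ± 10.27 CPM in wild type (log2 fold change -1.26, edgeR adjusted p = 0.14). Its reads were 23, 4 and 31 in KO1 to KO3 and 33, 48 and 19 in WT1 to WT3, so the groups overlapped. Ccbp2 was called lower without a filter (edgeR adjusted p = 0.00081), a fit whose p-values are not comparable with the others. Its log2 fold change was -3.29 with KO2 as the only knockout library. Without KO2 it was -0.83 (edgeR adjusted p = 0.31). Receptors of the ligands above are given by that role, chosen after their values were seen. Cxcr2 had 25, 31 and 36 reads in KO1 to KO3 and 15, 18 and 16 reads in WT1 to WT3, and did not pass (log2 fold change 0.47, SE 0.27, edgeR adjusted p = 0.36). Ccr1, the receptor of Ccl6 and Ccl9, had 5 reads in each knockout library and 0 in each wild type library. Ccr2 had 5, 16 and 14 reads in the knockout and 4, 1 and 4 reads in the wild type libraries, Cxcr4 had 7, 9 and 11 against 1, 2 and 5 reads, and Cxcr3 had 1, 2 and 0 against 0 reads in each. Ccr1, Ccr2, Cxcr3 and Cxcr4 were under the filter. In the fit without a filter Ccr1 was called higher, as it was with a filter of at least 1 CPM in 3 libraries.

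Among 24 other adhesion molecules and integrins, 1 of 11 tested rose, and none fell in edgeR, DESeq2 or limma-voom (0 at an unadjusted edgeR p under 0.05). Of all tested genes 3.08% were called higher and 2.65% lower in edgeR, so 1 call in a list this small is no result about the list. The gene that rose was Itgb2, the beta 2 integrin chain of the receptors for Icam1. It stood at 13.0, 16.3 and 12.2 CPM in KO1 to KO3, against 3.49, 3.97 and 3.56 CPM in WT1 to WT3. The groups did not overlap (log2 fold change 1.88, SE 0.34, edgeR adjusted p = 0.0058), and the call held with each library left out. The wild type libraries held only 5, 6 and 6 Itgb2 reads, under the filter's level of 5.99 CPM. Its passing the filter therefore depended on its knockout level. The alpha chain that makes LFA-1 with it, Itgal, did not pass (8.31 ± 2.55 CPM in knockout and 7.87 ± 3.19 CPM in wild type, adjusted p = 0.91). The chains of VLA-4, the receptor of Vcam1, did not pass either, with Itga4 at 101 ± 26 CPM in knockout and 71.5 ± 24.0 CPM in wild type (adjusted p = 0.26) and Itgb1 at 277 ± 16 CPM in knockout and 255 ± 10 CPM in wild type (adjusted p = 0.69). Itgal, Itga4 and Itgb1 were named for their role after the values were seen.

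Other genes of the pathway were read from 6 lists of 134 genes in all, of which 60 were tested. Of these 5 rose and none fell in edgeR (14 higher and 5 lower at an unadjusted p under 0.05), with 4 higher and 1 lower in DESeq2 and 4 higher and 0 lower in limma-voom. Over all tested genes 3.08% were called higher and 2.65% lower in edgeR, and 10.3% were higher and 9.97% lower at an unadjusted p under 0.05. The lists' median log2 fold change was 0.17, against 0.01 over all tested genes. Of the 29 other chemokine ligands 9 had no read in any library and 1 passed the filter, Cxcl16, the membrane-bound ligand of Cxcr6, at 14.4 ± 7.3 CPM in knockout and 10.6 ± 2.9 CPM in wild type (edgeR adjusted p = 0.51). Exons of Cxcl16 overlap those of Zmynd15 on the opposite strand. Cxcl14, under the filter, had 8, 33 and 42 reads in the knockout and 5, 0 and 4 reads in the wild type libraries. It was called higher without a filter, with at least 1 CPM in 3 libraries, without KO1 and with KO2 as the only knockout library, and is named after its values were seen. Of 24 tested genes of the NF-kB, TNF and IL-1 pathway 3 rose, 20 had a positive value, and none fell (8 higher and 1 lower at an unadjusted edgeR p under 0.05). Over all tested genes 50.8% had a positive value. The genes that rose were the interleukin 1 receptor Il1r1 (183, 249 and 111 CPM in KO1 to KO3, against 92.9, 83.3 and 71.9 CPM in WT1 to WT3, adjusted p = 0.017), the TNF receptor Tnfrsf1a (log2 fold change 0.65, SE 0.17, adjusted p = 0.038) and Nfkbiz, a nuclear partner of NF-kB (1.36, SE 0.36, adjusted p = 0.044). Tnfrsf1a and Nfkbiz were each called in 2 or fewer of the 6 fits that left out a library, and Il1r1 was lost without KO2 (0.067), WT2 (0.067) or WT3 (0.095). Nfkbiz, at 5.59, 11.9 and 5.34 CPM in WT1 to WT3, reached the filter's level of 5.99 CPM in all libraries of the knockout group only.

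The gene of interferon gamma, Ifng, had no read in any library. None of 9 tested genes for chemokine processing and anchoring passed in edgeR or limma-voom. At an unadjusted edgeR p under 0.05, 2 were higher and 2 lower, against 10.3% and 9.97% of all tested genes. Those of highest mean CPM, not corrected for length, were the heparan sulphate proteoglycan Sdc4 (834 ± 103 CPM in knockout and 974 ± 90 CPM in wild type, adjusted p = 0.46) and Dpp4, the peptidase that trims Cxcl9, Cxcl10 and Cxcl12 (174 ± 23 CPM in knockout and 256 ± 34 CPM in wild type, edgeR adjusted p = 0.066), which DESeq2 called lower (adjusted p = 0.047). Exons of Dpp4 overlap an antisense transcript.

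**Figure D4:**
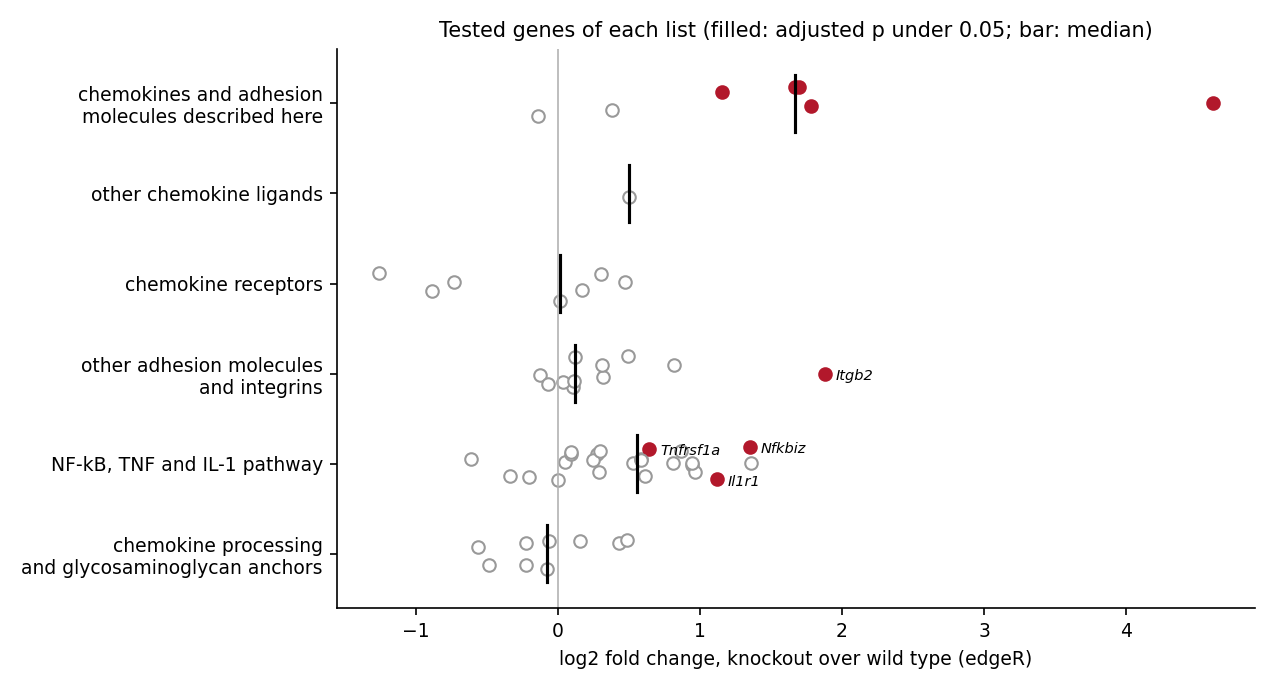
Log2 fold change (knockout over wild type, edgeR) of each tested gene in the chemokines and adhesion molecules described here and in 5 of the other lists. Filled points have an adjusted p under 0.05, bars are the list medians, and the vertical position within a list carries no value. The 4 called genes of these other lists lie between 0.65 and 1.88.

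Of 14 tested Kupffer cell and macrophage markers, 3 were called higher in edgeR and 6 in DESeq2, against 3.08% and 2.83% of all tested genes, none was lower in either (0 at an unadjusted edgeR p under 0.05, and 0 in limma-voom), and the 17 on the list summed to 433, 795 and 781 CPM in KO1 to KO3, against 270, 497 and 386 CPM in WT1 to WT3. Measured from the wild type mean in log2(CPM + 1), their median was 0.22, 0.97 and 1.06 in KO1 to KO3 and -0.47, 0.43 and 0.18 in WT1 to WT3, and KO1 lay below WT2. Of the 14 tested markers 13 had a positive value and 1 a negative one, against 50.8% positive among all tested genes. The 3 called in edgeR were C1qc (adjusted p = 0.018), Mpeg1 (0.022) and Ctss (0.027). The Kupffer cell gene Clec4f was at 84.3 ± 33.1 CPM in knockout and 57.0 ± 6.0 CPM in wild type and did not pass (edgeR adjusted p = 0.20). Cd5l (log2 fold change 0.83, edgeR adjusted p = 0.052) and Timd4 (0.74, edgeR adjusted p = 0.13) did not pass either. The 10 neutrophil markers found had 33, 76 and 86 reads in KO1 to KO3 and 13, 15 and 8 reads in WT1 to WT3. Scaled for depth they summed to 20.4, 41.2 and 29.9 CPM in KO1 to KO3, against 9.08, 9.92 and 4.75 CPM in WT1 to WT3. Among them S100a8 had 3, 1 and 6 reads in the knockout and 2, 1 and 1 reads in the wild type libraries, and S100a9 had 3, 7 and 18 reads in the knockout and 3, 0 and 1 reads in the wild type libraries. Retnlg had 4, 8 and 16 reads in the knockout and 0 reads in each wild type library, and Ngp had 2, 8 and 3 reads in the knockout and 0, 0 and 1 reads in the wild type libraries. Ltf had 2, 11 and 6 reads in the knockout and 4, 1 and 0 reads in the wild type libraries. For Mmp8 these were 5, 11 and 11 against 0, 5 and 1 reads. Camp had 1, 1 and 3 against 1, 0 and 0 reads, Mpo had 0, 4 and 0 against 0, 1 and 0 reads, and Elane had no read. Csf3r, with 13, 25 and 23 reads in the knockout and 3, 7 and 4 reads in the wild type libraries, was the 1 tested marker and was called higher (log2 fold change 1.67, edgeR adjusted p = 0.04), though not in DESeq2 or limma-voom. Its wild type levels of 2.10, 4.63 and 2.38 CPM lay under the filter's 5.99 CPM, so it was tested only through its knockout level. The 15 lymphocyte markers summed to 9.77 to 15.5 CPM in knockout and 6.99 to 11.9 CPM in wild type, and none could be tested.

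Of 12 stellate cell markers tested 2 were called higher and 0 lower in edgeR, against 3.08% and 2.65% of all tested genes. DESeq2 called 3 higher, against 2.83%, and all 12 had a positive value, against 50.8% of all tested genes. The 14 on the list summed to 807 to 944 CPM in knockout and 621 to 691 CPM in wild type. Of 12 liver endothelial markers 1 was called higher and 2 lower in edgeR, against the same shares, and 4 had a positive and 8 a negative value. They summed to 426 to 568 CPM in knockout and 560 to 623 CPM in wild type. Of 9 hepatocyte markers tested 0 were called higher and 1 lower in edgeR, and 1 had a positive and 8 a negative value. The 6 platelet markers summed to 14.6 to 21.1 CPM in knockout and 14.5 to 23.2 CPM in wild type. The part of cell composition in the rises of Cxcl1, Cxcl9, Ccl6, Icam1 and Vcam1 was not tested.

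**Figure D5:**
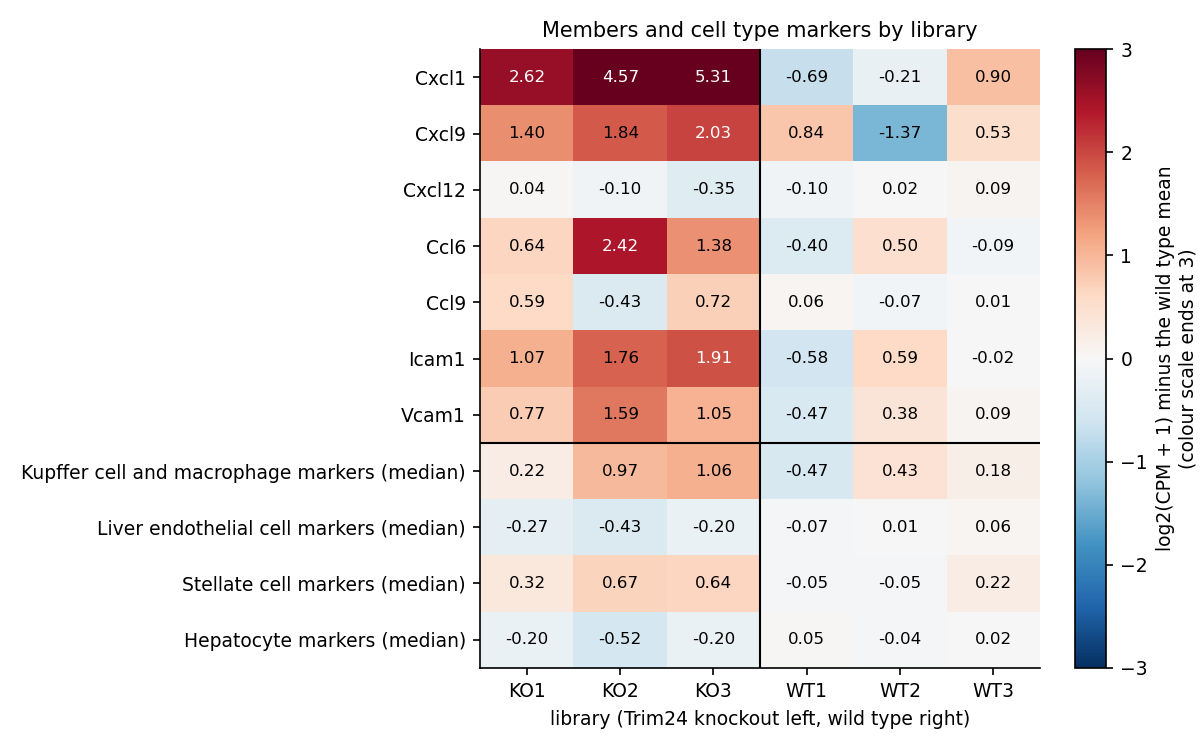
Difference from the wild type mean on the log2(CPM + 1) scale in each library, for the 7 tested genes (upper rows) and as the median of 4 marker lists (lower rows), with knockout libraries left of the line. Cxcl1, the called gene of largest fold change, reaches 2.62, 4.57 and 5.31 in KO1 to KO3. Vcam1, the called gene of smallest fold change, reaches 0.77, 1.59 and 1.05, and the macrophage median 0.22, 0.97 and 1.06.

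Genes with library profiles nearest to Cxcl1 and Vcam1 were ranked by the root mean square difference of log2(CPM + 1), centred on the wild type mean, over the 6 libraries. Nearest to Cxcl1 were Mep1a, a metalloproteinase subunit (0.84), Eda2r, a receptor of the TNF receptor superfamily (0.92), Apol9a (1.02) and 2410089E03Rik (1.07). None followed Cxcl1 closely, and Mep1a had no read in any wild type library. Apol9a has a near-identical neighbour, Apol9b, so its reads may be shared. Nearest to Vcam1 were Serpina3n, an acute-phase protease inhibitor (0.11), Nlrc5, a transactivator of MHC class I genes (0.14), Rnf215 (0.15) and Cybb, a subunit of the phagocyte oxidase (0.16). Of these, Serpina3n was at 1112, 1795 and 1282 CPM in KO1 to KO3, against 438, 891 and 566 CPM in WT1 to WT3, with KO2 and WT2 the highest of their groups, as for Vcam1.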

How the data were processed

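Liver RNA was isolated with TRIzol and made into Illumina libraries, per the labels' protocols. The authors deposited 1 table of raw counts by gene symbol for each of the 6 libraries. TopHat 1.4.1, mm9, HTSeq and edgeR are named in the submitters' processing notes, without their roles. Annotation and strand setting are not given in the sources used here. Reads assigned to no gene, 93.3% to 95.8% of the counted reads, were left out, and 0 columns were left unused.

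The whole table was tested in edgeR 4.0.16 under R 4.3.3 (quasi-likelihood F test, TMM scaling, filterByExpr at a minimum count of 10) and genotype as the only term. Calls used a Benjamini-Hochberg adjusted p under 0.05 over 9180 genes. Fold changes are knockout over wild type, and each SE is the absolute log2 fold change divided by the root of F. Alternatives were DESeq2 1.42.0, limma-voom (limma 3.58.1), other scalings, filters and thresholds, a replicate block, and libraries left out. Exon lengths, overlaps and distances came from GENCODE M21 on GRCm38, and all 10 genes matched. The genes, the lists and the motifs were chosen with earlier results of these data known. Named genes were the 10, Trim24, up to 6 called genes of each list or its 2 tested genes of highest mean CPM where none was called, and the 4 genes of at least 5 CPM nearest in profile to Cxcl1 and to Vcam1. The cell type markers, Ifng and Il1rap are named outside these rules. Other genes named for their role are marked as such. A called gene of the pathway lists is counted in their totals and not reported here. Python 3.11.15 with pandas 2.3.3, scipy 1.17.1 and matplotlib 3.10.9 made tables and figures.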

Additional observations from a re-analysis of the deposited data

How the results depend on the processing

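The rises of Cxcl1, Cxcl9, Ccl6, Icam1 and Vcam1 kept their sign in all 15 alternatives, and Cxcl1 kept its call in each. The threshold of 0.1, counted among these alternatives, reused the main fit, so no sign could change and no call could be lost there. The number of the 10 genes called higher was 1 to 5 with each library left out (1 without WT3, 2 without WT1 or KO2, 3 without WT2 or KO3, 5 without KO1). Ccl9 had a log2 fold change of -0.44 with KO2 as the only knockout library, against 0.38 in the full comparison. Of the 105 values of the 7 tested genes, 18 lost their call, 1 gained one (Ccl9 without KO2) and 1 changed sign. The replicate block left 5 of the 10 called, with 6 of the other pathway genes higher and 1 lower (Il1rap). Libraries sharing a number did not deviate together (r = -0.07, 0.07 and 0.03 across genes for numbers 1, 2 and 3), so the pairing rests on the number alone. Of the other pathway genes, 13 were higher and 3 lower without a filter and 9 higher with at least 1 CPM in 3 libraries, where 119 and 92 were tested. With each library left out 2 to 9 were higher and 0 to 1 lower. DESeq2 called 1 lower, a threshold of 0.1 called 2 lower, and KO2 as the only knockout library 2 lower. Ccrl1 had a log2 fold change of 0.17 with all libraries and -0.016 (without KO1) to 0.28 (without KO3) with each library left out. Over all genes, 526 were called, against 1085 without a filter, 882 at the threshold of 0.1, and 298, 318, 274 and 222 without KO2, WT1, WT2 and WT3. The causes were not tested. The small number of reads assigned to genes limits Cxcl2, Cxcl10 and Ccl2 most, and most receptors could not be tested.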
